A study of Mus musculus with 17 samples.

Results

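The oligodendrocyte lineage and its myelin were examined through 38 named genes of the mouse hippocampus, out of 18193 genes that could be tested. A gene belonged to the set when the array's annotation gave at least 1 probe set (a group of short probes read as 1 signal) its symbol and no other symbol. All 38 genes were found, through 74 probe sets, and each gene's value was taken from its brightest probe set over the 17 arrays. By the stage at which they are best known, 3 are precursor genes, 3 mark newly formed cells, 3 are transcription factors present along the whole lineage and 29 belong to mature, myelinating cells.

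Oligodendrocytes arise from precursor cells that divide under growth factor signals, pass through a short newly formed stage, and then wrap axons in myelin, a compacted membrane rich in lipid and in a few abundant proteins. Transcription factors of the Sox and Olig families set the lineage, and Myrf switches on the myelin genes. In the hippocampus these cells lie mostly in the fibre tracts at its border and, more sparsely, among the neurons.

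Adult male C57BL/6J mice, listed in the labels with the genotype C57/BL6 and no engineered allele, were housed singly and handled on each of 6 days. The sleep-deprived group of 8 animals was then kept awake for 5 h by gentle handling from about lights-on, while the 9 animals of the undisturbed group stayed in their home cages and were dissected in alternation with the others. Both groups were given as 2 months old in the sample labels and 2 to 4 months in the protocol, and the whole hippocampus of each animal was read on its own Affymetrix array. The comparison asks which of these transcripts differ after 5 h awake, and it cannot tell the loss of sleep from the handling that caused it.

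All values are log2 signals, and a difference is sleep-deprived minus undisturbed on that scale, so that a difference of 1 would be a doubling. A gene is called when the adjusted p of limma's test (Benjamini-Hochberg, across the 18193 genes) is under 0.05. Precision is limited by how many arrays there were. In bulk tissue, fewer cells of a type and less RNA per cell cannot be told apart.

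All 10 listed hippocampal neuron markers had a probe set on the array, which would hold for any tissue. Their mean level lay between 9.70 and 9.97 in undisturbed and between 9.63 and 9.97 in sleep-deprived animals. Array medians lay between 6.14 and 6.22. Markers of choroid plexus, a tissue next to the hippocampus, varied widely in both groups: the mean of 11 genes ran from 5.71 to 7.14 in undisturbed and from 5.74 to 7.41 in sleep-deprived animals. All 11 had a positive difference and none was called, 1 having an unadjusted p under 0.05 in limma. Of 4 measured markers of Schwann cells, which make the myelin of peripheral nerves, none was called in limma and none had an unadjusted p under 0.05, and their mean level ran from 5.83 to 6.10 and from 5.90 to 6.12.

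After sleep deprivation 2 of the 38 genes fell, Opalin and Aspa, and 1 rose, Anln, all of them of the mature group. The other 35 did not pass the test and had differences between -0.20 and 0.20, with a median of -0.049. Of all genes tested 3.97% were called, 2.73% as lower and 1.25% as higher, beside 3 of 38, or 7.89%, of these genes. The median difference of the 38 was -0.049, against 0.0016 for all genes, and 25 of the 38 were negative, against 49.2% of all genes. A lean to negative values was not particular to them: the 10 neuron markers had a median of -0.072 with 9 of 10 negative, and the genes with a mean level of at least 6 a median of -0.023. Taken without adjustment, 11 of the 38 had a p under 0.05, against 18.6% of all genes. In 11 of the 38, or 28.9%, at least 7 of the 8 sleep-deprived animals lay on one side of the undisturbed mean, against 31.2% of all genes.

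**Figure D1:**
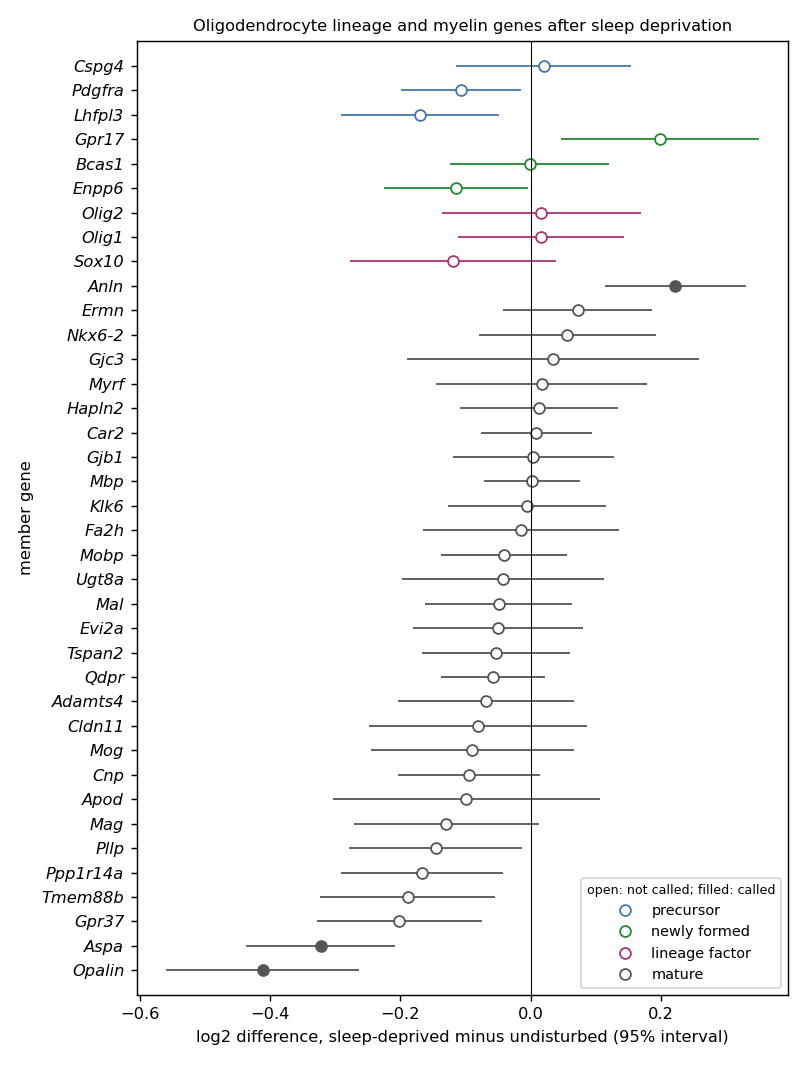
Difference of each of the 38 genes after sleep deprivation (horizontal axis, log2, sleep-deprived minus undisturbed; points are the difference and lines its 95% interval, from 8 and 9 animals), grouped by stage. Filled points passed the test: Opalin at -0.41 and Aspa at -0.32 to the left, Anln at 0.22 to the right.

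Opalin encodes a glycosylated transmembrane protein of the oligodendrocyte and its myelin. Its level ran from 9.56 to 9.90 with a median of 9.77 in undisturbed animals, and from 8.98 to 9.61 with a median of 9.34 in sleep-deprived animals. All 8 sleep-deprived animals lay below the undisturbed mean, and the groups overlapped only through the lowest undisturbed animal, replicate 9, which lay below the sleep-deprived animals of replicates 2 and 3. The mean fell from 9.75 ± 0.089 (SD, n = 9) to 9.34 ± 0.22 (SD, n = 8), 1.33-fold (difference -0.41, SE 0.071, limma adjusted p = 0.0020). The spread among sleep-deprived animals was the wider one: replicates 6 and 7, at 9.11 and 8.98, were the lowest of all 17.

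Aspa encodes aspartoacylase, which in oligodendrocytes splits the neuronal metabolite N-acetylaspartate and so releases acetate, a building block for myelin lipid. It ran from 8.99 to 9.21 with a median of 9.11 in undisturbed animals and from 8.52 to 8.95 with a median of 8.81 after sleep deprivation. The groups did not overlap, which held for 1 of the 38 genes and for 0.731% of all genes. The mean fell from 9.10 ± 0.088 (SD, n = 9) to 8.78 ± 0.14 (SD, n = 8), 1.25-fold (difference -0.32, SE 0.055, limma adjusted p = 0.0019). Aspa has a single probe set on the array.

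Anln encodes anillin, an actin-binding protein known from the cleavage furrow of dividing cells and, in the adult brain, as an oligodendrocyte transcript. Undisturbed animals ran from 8.72 to 9.03 with a median of 8.89, and sleep-deprived animals from 8.98 to 9.29 with a median of 9.07. All 8 sleep-deprived animals lay above the undisturbed mean, and replicates 1 and 3 stood highest, at 9.29 and 9.28. The mean rose from 8.89 ± 0.094 (SD, n = 9) to 9.11 ± 0.12 (SD, n = 8), 1.17-fold (difference 0.22, SE 0.052, limma adjusted p = 0.019). A second, dimmer probe set of Anln lay at 0.064 (adjusted p over all probe sets = 0.59), and with the mean of both the call was lost (0.14, adjusted p = 0.069).

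**Figure D2:**
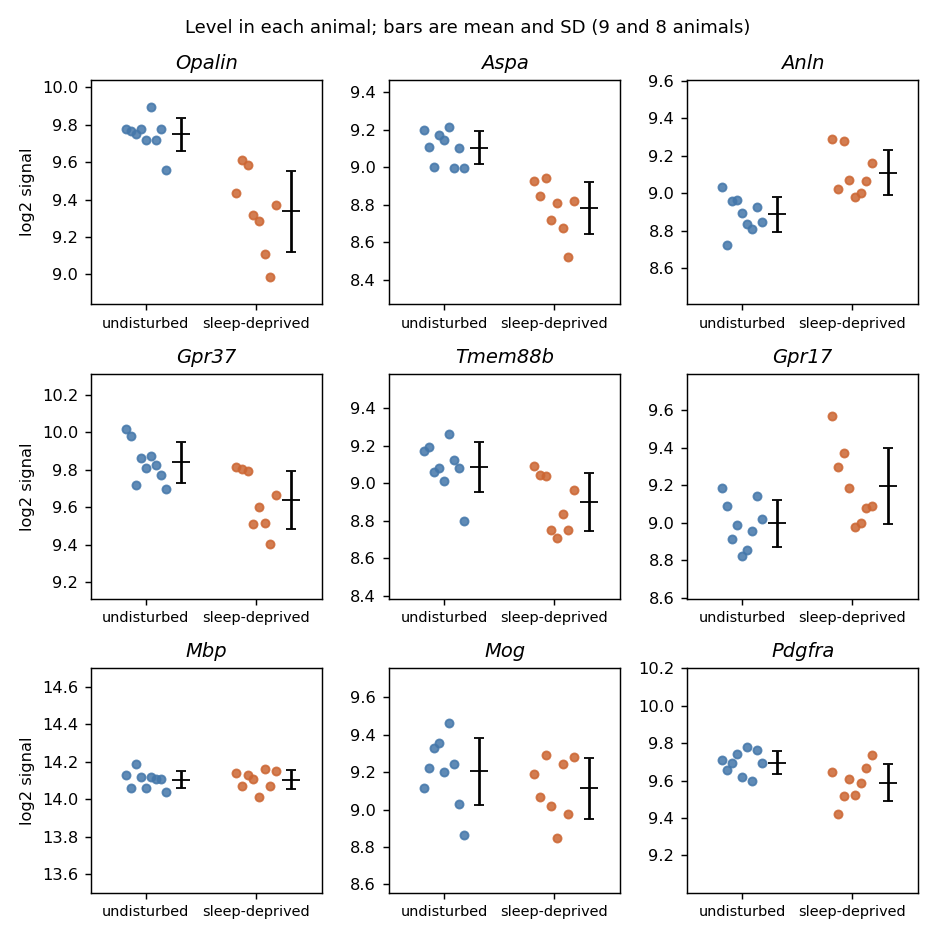
Level of 9 of the genes in every animal (vertical axis, log2 signal, each panel spanning the same range of 1.2; points are animals, bars mean and SD, undisturbed n = 9 and sleep-deprived n = 8). Aspa separates the groups, Opalin and Anln nearly so, and Mbp keeps all 17 animals between 14.01 and 14.19.

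The stretches just before an annotated transcription start of these 3 genes are shown because they are the members that passed the test. For Aspa this start, at base 73324637, lies inside the annotated gene, whose upstream end is at base 73326876. Each is 250 bases long, from RefSeq's annotation of build GRCm38.p6, on the minus strand, and is written 5′ to 3′ in the direction of the gene. Capitals mark every match, on either strand, to the Sox core ACAAAG or ACAATG or to the E-box CANNTG, the element that Olig and other basic helix-loop-helix factors recognise. No matches of the 2 kinds overlap here.
Opalin, chr19:41077114-41077363: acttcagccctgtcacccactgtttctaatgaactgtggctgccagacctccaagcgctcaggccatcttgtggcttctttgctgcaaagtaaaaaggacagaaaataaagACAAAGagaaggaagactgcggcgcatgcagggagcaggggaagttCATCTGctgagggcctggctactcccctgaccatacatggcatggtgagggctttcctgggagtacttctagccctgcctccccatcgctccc
Aspa, chr11:73324638-73324887: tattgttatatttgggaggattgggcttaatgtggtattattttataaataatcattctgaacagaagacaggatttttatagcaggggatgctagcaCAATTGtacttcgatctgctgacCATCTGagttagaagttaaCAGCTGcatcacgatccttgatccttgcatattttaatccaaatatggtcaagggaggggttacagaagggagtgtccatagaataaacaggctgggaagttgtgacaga
Anln, chr9:22389207-22389456: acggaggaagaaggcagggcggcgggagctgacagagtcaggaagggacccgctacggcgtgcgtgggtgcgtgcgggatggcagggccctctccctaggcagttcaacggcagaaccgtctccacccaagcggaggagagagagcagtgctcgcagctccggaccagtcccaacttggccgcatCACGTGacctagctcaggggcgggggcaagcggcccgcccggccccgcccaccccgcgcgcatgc

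The Opalin stretch held 1 Sox core and 1 E-box, the Aspa stretch 0 and 3, and the Anln stretch 0 and 1. Of their bases 54.4% were G or C before Opalin, 38.8% before Aspa and 70.4% before Anln. A Sox core was present in 25.2% and an E-box in 66.2% of all 32851 such stretches. Promoters of 28 of the 38 genes were in the table, with 35 start sites, of which 15 (42.9%) held a Sox core and 26 (74.3%) an E-box. The single E-box of Anln has the letters CACGTG, found in 6.02% of all stretches and in 1 of the 35. These matches describe letters and show no binding.

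The proteins that make up the myelin sheath itself did not pass the test, other than Opalin. Of 11 such genes, each read through its brightest probe set, 9 had negative differences and 1 was called, and their median was -0.080. Mbp, the myelin basic protein gene that compacts the inner membrane faces, ran from 14.04 to 14.19 in undisturbed and from 14.01 to 14.16 in sleep-deprived animals. Its difference of 0.0024 had a 95% interval from -0.072 to 0.076 (limma adjusted p = 0.98), the narrowest of the 38. The level of Mbp was near the highest value of all probe sets, 14.8, and whether differences are compressed there was not tested. Mobp, a second abundant compact myelin gene, lay at -0.040 (95% interval -0.14 to 0.056) and Mal, a raft proteolipid gene, at -0.049 (-0.16 to 0.063). The dimmer probe set of Mal had the opposite sign, at 0.050.

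Mog, Mag and Cnp lie on the outer surface, the axon-facing membrane and in the cytoplasmic channels of myelin, and none of them passed. Mog ran from 8.87 to 9.46 in undisturbed and from 8.85 to 9.29 in sleep-deprived animals, at -0.090 (95% interval -0.25 to 0.066). Mag was at -0.13 (-0.27 to 0.013, limma adjusted p = 0.32) and Cnp at -0.095 (-0.20 to 0.015, limma adjusted p = 0.35). Cnp kept to 13.18 to 13.32 in undisturbed animals but ran from 12.96 to 13.37 after sleep deprivation, so that its sleep-deprived animals lay on both sides of the undisturbed range. The dimmer probe sets of Cnp had the opposite sign, at 0.032 and 0.019. Cldn11, the tight junction gene of myelin, was at -0.080, Pllp (plasmolipin) at -0.15 (adjusted p = 0.22), Tspan2 at -0.053 and Ermn, a cytoskeletal gene of late differentiation, at 0.072.

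Set against Mbp on the same array, the difference was -0.41 for Opalin (limma adjusted p = 0.0019), -0.32 for Aspa (adjusted p = 0.0024) and 0.22 for Anln (adjusted p = 0.015). This comparison was chosen after the values were seen, and since Mbp lay at 0.0024 with a spread below that of nearly all genes, the subtraction leaves the values almost as they were and adds no support. Set against the more variable Mog, none of the 3 passed (Opalin -0.32, adjusted p = 0.21; Aspa -0.23, adjusted p = 0.50; Anln 0.31, adjusted p = 0.25), and 59 genes of the whole table did. With the mean of Mbp, Mobp, Mog, Mag, Cnp, Cldn11 and Mal as a covariate all 3 calls held (Opalin -0.34, adjusted p = 0.00570; Aspa -0.28, adjusted p = 0.00700; Anln 0.26, adjusted p = 0.00829).

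Of the 5 enzyme genes, Aspa alone was called. Ugt8a and Fa2h, which build the galactolipids of myelin and hydroxylate their fatty acids, lay at -0.043 and -0.014. Car2, carbonic anhydrase, was at 0.0089 (95% interval -0.076 to 0.094), and Qdpr, which regenerates tetrahydrobiopterin, at -0.057 (-0.14 to 0.023). The gap junction genes Gjc3 and Gjb1 lay at 0.034 and 0.0038, and Gjc3 had an SD of 0.21 in undisturbed and 0.30 in sleep-deprived animals, a pooled spread wider than that of 98.9% of all genes.

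Among the receptor and signalling genes of mature cells, Gpr37, a receptor that restrains myelination, came nearest to the threshold. It ran from 9.70 to 10.02 with a median of 9.83 in undisturbed animals and from 9.40 to 9.82 with a median of 9.63 after sleep deprivation. The groups overlapped, and all 8 sleep-deprived animals lay below the undisturbed mean (difference -0.20, SE 0.061, limma adjusted p = 0.066). It passed in 6 of 31 alternatives, among them without sleep-deprived replicate 1 (adjusted p = 0.040) or replicate 2 (0.049), and over all 31 the adjusted p ran from 0.035 to 0.63. Tmem88b, a membrane protein gene of unclear role, was at -0.19 (adjusted p = 0.11) and passed in 2 of 31 alternatives, 1 of them without undisturbed replicate 9 (adjusted p = 0.039), with a range from 0.028 to 0.66. Ppp1r14a, a phosphatase inhibitor gene, was at -0.17 (adjusted p = 0.13).

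The 4 genes for secreted or extracellular proteins lay between -0.099 and 0.013, and none was called in limma or had an unadjusted p under 0.05. They were Apod, a lipid carrier, Hapln2, a link protein of the nodes of Ranvier, the protease gene Klk6 and the proteoglycan-cleaving enzyme gene Adamts4. Apod varied most of the 4; its mean was 11.49 ± 0.25 (SD, n = 9) in undisturbed and 11.39 ± 0.21 (SD, n = 8) in sleep-deprived animals. Evi2a, whose role is unclear, was at -0.050. The transcription factor genes of the mature stage, Myrf and Nkx6-2, were at 0.017 and 0.056. Klk6 and Nkx6-2 were the 2 genes with a mean level under 6, where differences can be compressed, which was not tested here.

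The lineage factors Olig1, Olig2 and Sox10 did not pass, and none had an unadjusted p under 0.05 in limma. Olig1 lay at 0.015 (95% interval -0.11 to 0.14), Olig2 at 0.016 (-0.14 to 0.17) and Sox10 at -0.12 (-0.28 to 0.038). Sox10 had 2 further probe sets, at 0.011 and -0.021.

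None of the 3 precursor genes was called in limma, and 2 had an unadjusted p under 0.05. Pdgfra, the receptor for the growth factor that drives precursor division, ran from 9.60 to 9.78 in undisturbed and from 9.42 to 9.74 in sleep-deprived animals, and 7 of 8 sleep-deprived animals lay below the undisturbed mean (difference -0.11, SE 0.045, adjusted p = 0.19). Its 2 dimmer probe sets had the same sign, at -0.14 and -0.074. Lhfpl3, a membrane protein gene of precursors, lay at -0.17 (SE 0.058, adjusted p = 0.11) and its other probe set at -0.14. Cspg4, the NG2 proteoglycan gene, was at 0.020 with a second probe set at -0.10.

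The newly formed stage showed no common direction, with 0 of 3 called in limma and 2 of 3 with an unadjusted p under 0.05. Gpr17, a receptor that holds cells at this stage, ran from 8.82 to 9.19 with a median of 8.99 in undisturbed animals, and from 8.98 to 9.57 with a median of 9.14 after sleep deprivation. Its 3 highest values were sleep-deprived replicates 1, 3 and 2, at 9.57, 9.37 and 9.30, and the other sleep-deprived animals lay within the undisturbed range (difference 0.20, SE 0.073, limma adjusted p = 0.14). Enpp6, a choline phosphodiesterase gene, was at -0.11 (adjusted p = 0.25) and Bcas1, a marker of early myelinating cells, at -0.0014 (95% interval -0.12 to 0.12). Dimmer probe sets of Bcas1, at mean levels of 5.575 and 4.549, lay at 0.128 and 0.130 (limma adjusted p over all probe sets = 0.25 and 0.19). That of Enpp6, at a mean level of 4.85, lay at 0.00076.

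**Figure D3:**
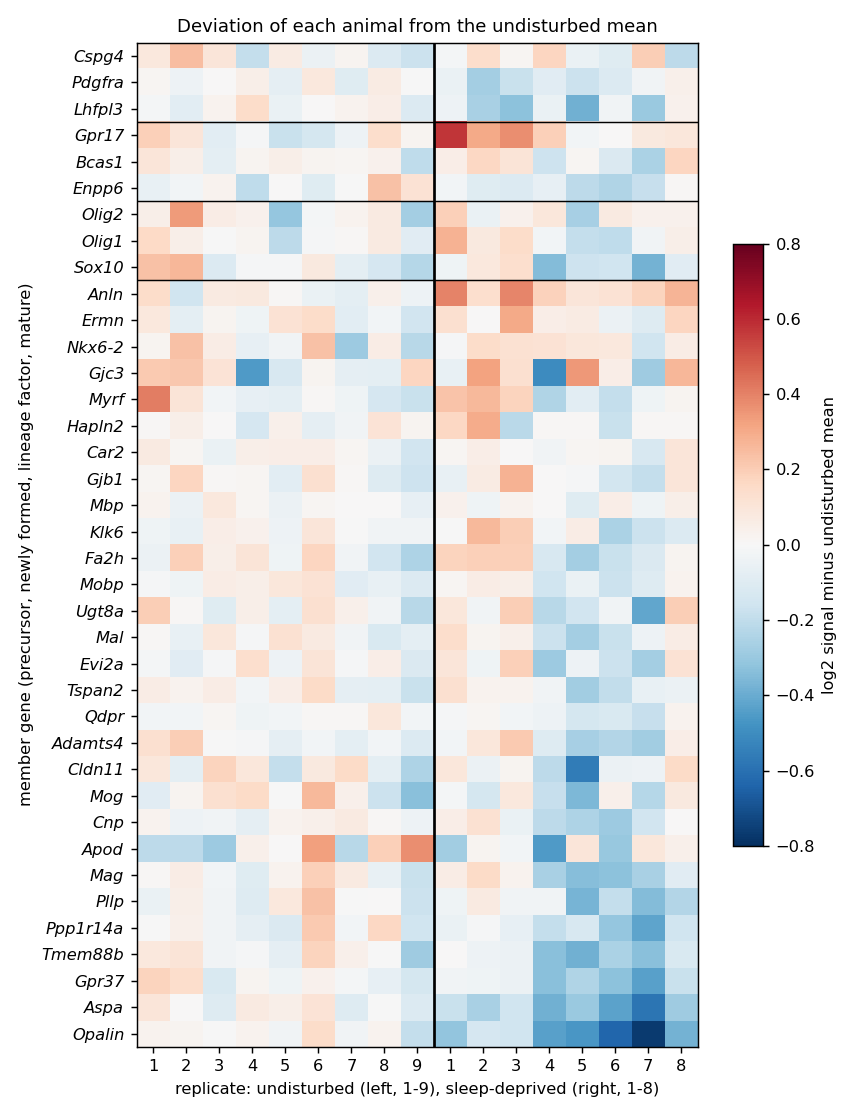
Deviation of each animal (columns) from the undisturbed mean of each gene (rows, grouped by stage; colour is the log2 signal minus that mean). Opalin and Aspa are lower in all 8 sleep-deprived animals, while many other mature genes are lower mainly in sleep-deprived replicates 4 to 7.

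Several genes could be read through more than 1 probe set: 22 of the 38 had 36 further probe sets, of which 17 had the sign of the brightest and 19 the opposite sign. Of these 36, 1 was called (816 of 45037 probe sets, or 1.81%, were called in all). It belonged to Tspan2, a tetraspanin gene of myelinating cells, and ran from 9.79 ± 0.041 (SD, n = 9) to 9.55 ± 0.15 (SD, n = 8) (difference -0.24, SE 0.054, limma adjusted p over all probe sets = 0.022). The brightest probe set of Tspan2 lay at -0.053 and the third at -0.018. The brightest and the called one differed in their response (0.19, SE 0.047, limma adjusted p = 0.0485 over 16752 pairs of all genes, of which 1.3% passed), narrowly, and not after quantile normalization (adjusted p = 0.0502).

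The 8 probe sets of Mbp lay between -0.081 and 0.11 and the 5 of Mobp between -0.040 and 0.17, and none was called in limma. Among them 1 each had an unadjusted p under 0.05, at 0.11 for Mbp and at 0.17 for Mobp. Opalin's other probe set, at a mean level of 3.98, lay at -0.13 (adjusted p over all probe sets = 0.25).

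**Figure D4:**
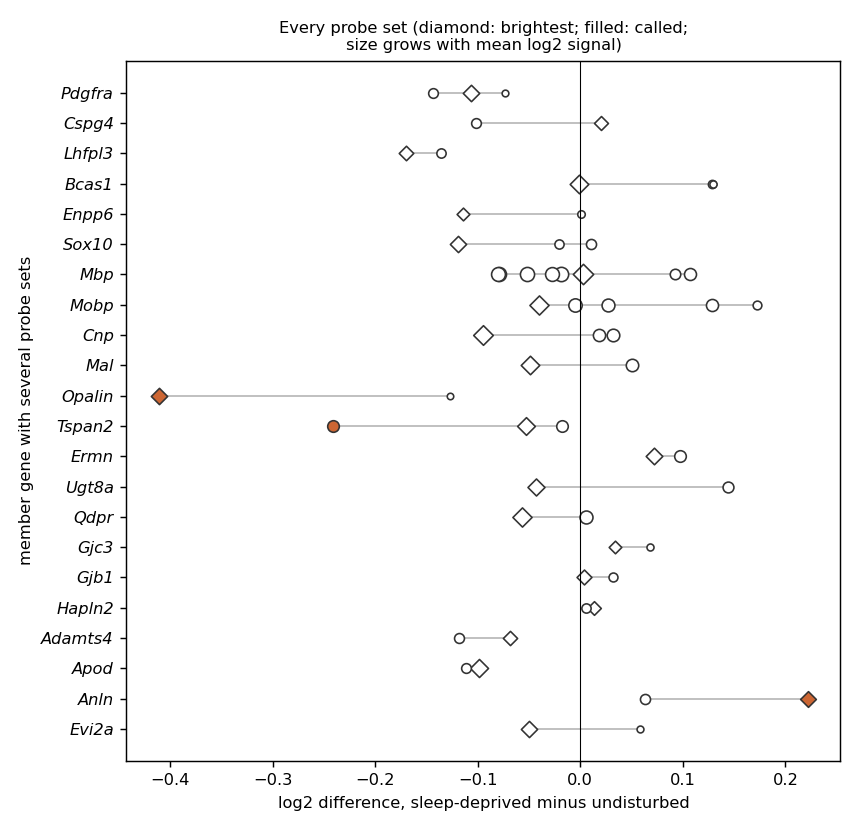
Difference of every probe set of the 22 genes with several (horizontal axis, log2, sleep-deprived minus undisturbed; diamonds are the brightest probe set, larger symbols have a higher mean signal, filled symbols were called). The called ones are the brightest of Opalin and of Anln and a dimmer one of Tspan2.

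Between animals of one group the mature genes varied together. After removal of the group means, the median correlation over 17 animals was 0.468 for the 406 pairs of mature genes, and 45.8% of pairs exceeded 0.5. For mature genes paired with genes outside the lineage lists the median was 0.0051 and 4.31% exceeded 0.5. The median among mature pairs was 0.469 after quantile normalization, 0.321 within the undisturbed and 0.551 within the sleep-deprived animals. All of these points share the same arrays and normalization, so they are given as a description.

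For the precursor genes the median correlation with mature genes was 0.021, with 2.3% of 87 pairs over 0.5. That value changed sign with the scaling, to -0.070 after quantile normalization and 0.087 with array medians subtracted. It was 0.219 within the undisturbed animals, with 17.2% of pairs over 0.5, and -0.103 within the sleep-deprived animals, with 3.45%. Whether it differs between the groups was not tested. For mature genes paired with genes outside the lineage lists, 9.68% of pairs exceeded 0.5 within the undisturbed and 11.9% within the sleep-deprived animals. The pair of Lhfpl3 and Mbp had r = 0.721 over all 17. Lineage factors stood at 0.435 and newly formed genes at 0.338. Single pairs crossed the stages: Gpr17 and Olig1 had r = 0.889, and Gpr37 and Sox10 r = 0.929 (n = 17, no test). Against the mean of the other mature genes, Tmem88b (0.899), Opalin (0.892) and Mag (0.89) had the highest r, and Apod (-0.072), Hapln2 (0.133), Gjc3 (0.283) and Mbp (0.321) the lowest of their stage.

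**Figure D5:**
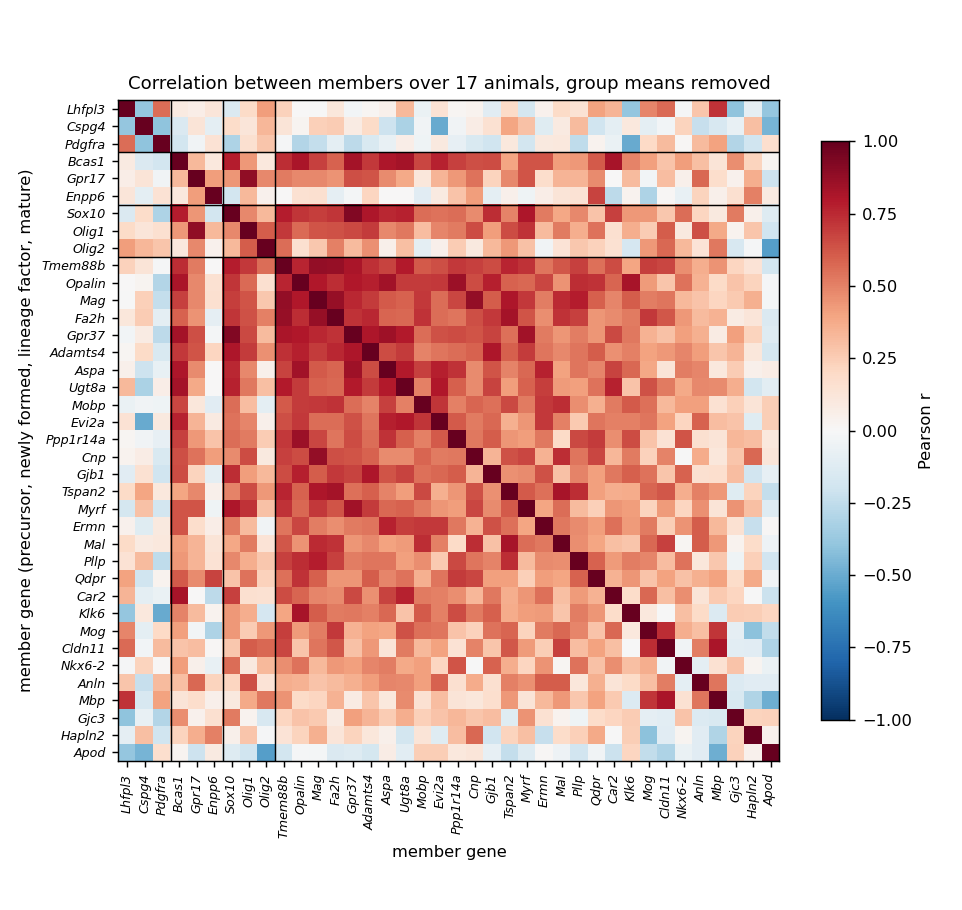
Pearson correlation between every 2 of the 38 genes over 17 animals after removal of group means (both axes are genes, black lines separate the stages). The large red block is most of the mature stage, with Bcas1, Sox10 and Olig1 joining it. Pdgfra, Cspg4, Lhfpl3, Enpp6, Hapln2 and Apod lie outside, and Gjc3, Mbp and Olig2 follow it only loosely.

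With Mog as the fixed reference, 5 of 37 genes passed a permutation test within groups after adjustment over the 37, against 14 with a raw p under 0.05. They were Cldn11 (r = 0.742, rho = 0.711, permutation p = 0.00054 and 0.00304, adjusted p = 0.02 and 0.0375), Mbp (r = 0.715, rho = 0.718, permutation p = 0.00187 and 0.0023, adjusted p = 0.03 and 0.0375) and Ugt8a (r = 0.637, rho = 0.738, permutation p = 0.0063 and 0.00206, adjusted p = 0.0466 and 0.0375), with Fa2h and Tmem88b by r only. Within the undisturbed and the sleep-deprived animals Cldn11 had r = 0.695 and 0.822, and Mbp 0.553 and 0.902. Without the 2 arrays farthest from the median of Mog, undisturbed replicate 9 and sleep-deprived replicate 5, r fell to 0.547 for Cldn11, 0.524 for Mbp and 0.565 for Ugt8a and 0 of 37 passed by permutation (4 with a raw p under 0.05), so these relations passed only with those arrays included. The count also moved with the scaling, to 0 after quantile normalization (7 with a raw permutation p under 0.05) and to 11 with array medians subtracted.

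The mean level of the 29 mature genes ran from 9.66 to 9.88 in undisturbed and from 9.57 to 9.84 in sleep-deprived animals. Sleep-deprived replicates 4 to 7 lay between 9.57 and 9.63, below every undisturbed animal, and replicates 1, 2, 3 and 8 between 9.78 and 9.84, within the undisturbed range. In 32 of the 38 genes the SD was larger among sleep-deprived than among undisturbed animals, against 60.7% of all genes. Their median SD was 0.158 in sleep-deprived and 0.105 in undisturbed animals, against 0.117 and 0.106 for all genes. Since many of the 38 vary together across the same animals, the 32 are not separate observations. Over the 17 animals, with group means removed, the mean of the mature genes had r = -0.357 with the choroid plexus markers and -0.177 with the 3′ minus 5′ signal of the control probe sets. It had r = 0.0936 with the neuron and -0.0402 with the astrocyte markers. Markers of the thalamus, of which Tcf7l2 is also on the list of other oligodendrocyte genes, were uncalled in limma in 8 of 8 cases (0 with an unadjusted p under 0.05) and had a mean level of 7.08 to 7.18 in undisturbed and 7.02 to 7.16 in sleep-deprived animals; that level had r = 0.395 with the mature mean, 0.468 with Opalin and 0.639 with Aspa. The part of these measures in the spread was not tested. With the 3′ minus 5′ signal as a covariate Opalin, Aspa and Anln stayed called (limma adjusted p = 0.00304, 0.00267 and 0.0184). With the choroid plexus markers as a covariate the 3 called genes kept their calls (Opalin -0.39, Aspa -0.32, Anln 0.22, limma adjusted p = 0.0035, 0.0034 and 0.027). With Opalin, Aspa and Anln the 3′ minus 5′ signal had r = 0.0036, 0.122 and -0.285, and the choroid plexus markers -0.30, -0.124 and -0.032. The thalamus markers were not used as a covariate.

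Outside both lists, the 8 genes whose levels followed the mature mean most closely were Litaf (r = 0.959), Pde8a (0.884), Efhd1 (0.881), Gna12 (0.847), Gga1 (0.845), Wfs1 (0.822), Ccdc184 (0.819) and Clic4 (0.815), over 17 animals with group means removed. They were picked as the highest r among all genes outside both lists, so their high r follows from the choice. Litaf, an endosomal membrane protein gene, had r = 0.888 within the undisturbed and 0.99 within the sleep-deprived animals. These are parts of the r it was picked by and add no support. Wfs1 is also among the 10 hippocampal neuron markers, whose mean level had r = 0.0467 with the mature mean. None of the 8 was called in limma, and their differences ran from -0.19 for Litaf to 0.061 for Gga1.

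Of 55 other genes known from oligodendrocytes and their precursors, 50 were measured, 1 rose, 1 fell and 48 did not pass, with a median difference of -0.030. This count is near the 3.97% called among all genes, and the 10 with an unadjusted limma p under 0.05 are near the 18.6% of all genes, so it is no result about the list. Il33, a nuclear cytokine gene of oligodendrocytes and astrocytes, fell from 9.80 ± 0.083 (SD, n = 9) to 9.57 ± 0.14 (SD, n = 8) (difference -0.23, SE 0.055, limma adjusted p = 0.020). Its call was lost with the canonical myelin genes as a covariate (-0.20, adjusted p = 0.069). Tns3, a focal adhesion gene of newly forming oligodendrocytes, rose from 10.59 ± 0.055 (SD, n = 9) to 10.77 ± 0.11 (SD, n = 8) (difference 0.18, SE 0.046, limma adjusted p = 0.029). That call was lost without undisturbed replicate 4 (adjusted p = 0.052) or 6 (0.051) or sleep-deprived replicate 3 (0.062) or 7 (0.063), and when the most variable of its probe sets was used (0.020, adjusted p = 0.91). Without undisturbed replicate 9, Lingo2 passed as lower too (-0.22, adjusted p = 0.033).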

How the data were processed

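Hippocampal RNA of 17 animals was read on 17 arrays, grouped by the sample labels. The authors deposited log2 signals, 1 per probe set, and per the submitters' processing notes used RMA and affy. That the base is 2 was taken from the range of the values, 2.9 to 14.8; the sources used here give no versions or filters. RMA brings the arrays to one distribution, which hides any shift common to most genes.

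Of 45101 probe sets 64 were controls and 34945 carried 1 symbol, compared through Entrez identifiers with RefSeq GRCm38.p6 (34741 matched, 0 changed). Each gene's brightest probe set entered a group-only model (lmFit and eBayes of limma 3.58.1, R 4.3.3), adjusted over 18193 genes. The fit was tested on simulated data. Correlations used 100000 permutations within groups. Replicates are labelled as biological replicates, 1 animal each. All member genes are reported by stage; other genes are named if called in the wider list, most correlated with the mature mean, or markers. Lingo2, Fyn and Lingo1 were chosen after their values were seen. Members and lists were chosen with earlier results of these data known. Alternatives covered scaling, probe set choice, level filter, variance model, weights, block, covariates, an exact permutation over 24310 assignments and each array left out. The comparisons with Mbp, Mog and the myelin covariate were chosen after seeing the data.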

Additional observations from a re-analysis of the deposited data

Results flagged for a closer look

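In 76 sets of values (38 genes in each group), 2 held an animal standing far from the rest of its group by Dixon's criterion, where chance gives about 1 in 20. Myrf, the transcription factor gene of myelination, was at 9.76 in undisturbed replicate 1, with the next animal at 9.46. Qdpr was at 12.81 in undisturbed replicate 8, with the next at 12.74.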

How the results depend on the processing

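Opalin and Aspa kept direction and call in 30 of 31 alternatives and Anln in 29 of 31. Without any 1 array all 3 stayed called (limma adjusted p up to 0.0051, 0.0047 and 0.041). The exact permutation test gave adjusted p = 0.0114, 0.00805 and 0.0208. Not every alternative could change a difference, so these counts are no measure of support. Aspa has 1 probe set, so the choice of probe set left its difference as it was. The level filter did so for all 3, and subtracting Mbp left them almost unchanged. No called gene reversed, and 22 uncalled genes changed sign somewhere. The main counts of 1 higher and 2 lower became 2 and 4 with the replicate block, where Gpr17 (0.20, limma adjusted p = 0.0458), Gpr37 (-0.22, adjusted p = 0.0348) and Tmem88b (-0.22, adjusted p = 0.028) passed as well and undisturbed replicate 9 has no partner. The counts became 0 higher with the mean of all probe sets (2 with an unadjusted limma p under 0.05) and 0 and 0 against Mog (2 and 2 unadjusted). The deviations of same-numbered animals had correlations from -0.159 to 0.393, over 0.1 in 3 of 8 pairs. In 1 of 8 the best match was its own number, so the numbers were not taken as pairs. In the wider list, the 1 higher gene became 0 with array medians subtracted, the mean of all or the most variable probe set, and against Mog (3, 2, 3 and 5 unadjusted in limma). The 1 lower gene became 2 with the mean of all probe sets (with Lingo1), 3 with the most variable probe set (with Fyn and Lingo1) or the block (with Lingo1 and Lingo2), and 0 against Mog or with the myelin covariate (0 and 4 unadjusted in limma). Without 1 array these counts ranged from 0 to 1 and from 1 to 2. Genes correlated with Mog numbered 0 after quantile normalization and 11 with array medians subtracted, against 5. The 1 probe set pair that differed became 0 after quantile normalization (9 pairs unadjusted). Stage medians, not computed against Mog, moved by less than the spread between animals under quantile normalization, subtracted medians, the block, the choroid plexus covariate and each array left out. The causes of these shifts were not tested. The arrays' number and the dimness of Klk6 and Nkx6-2 limit what can be seen.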
